A study of Homo sapiens with 2 samples.

Results

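Histones are the proteins around which DNA is wound, and the human genome encodes them in a large family of genes. Of 11511 genes with values in RNA-seq of Hep3B, a line established from a human hepatocellular carcinoma, 32 are histone genes and are described here. The members were taken by name: 21 genes whose symbols start with HIST1H, HIST2H or HIST3H, and 11 genes whose symbols start with H1F, H2AF or H3F3. The rule also covered HIST4H, and no such symbol was among the members. GENCODE release 29 has 71 coding symbols of the first kind and 16 of the second, and those without values were not analysed here. By RefSeq on GRCh38.p14 the HIST1H members lie on chromosome 6 and the HIST2H and HIST3H members on chromosome 1. The study compared 1 library of untreated Hep3B cells with 1 library of cells given A4368, a compound known here by its code alone, at 25 µM for 24 h. Both libraries came from cells grown in serum-containing DMEM, and neither the vehicle nor the RNA selection, strandedness or depth of the libraries is known here. The values were taken to be FPKM, which are fragment numbers corrected for transcript length and library size. They are not corrected for the RNA selection, so levels of genes with different kinds of mRNA may not be comparable.

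The genes fall into a pair of classes with different mRNAs. Replication-dependent genes (the HIST genes) lie in clusters, supply new chromatin during S phase, and give intronless mRNAs that end in a conserved stem-loop in place of a poly(A) tail. Replacement variants (the H1F, H2AF and H3F3 genes) are mostly transcribed throughout the cell cycle, carry poly(A) tails, and give proteins that are exchanged into chromatin outside replication. A library made by poly(A) selection recovers few stem-loop mRNAs; which selection was used here was not tested. A replication-dependent gene can also give a longer, polyadenylated transcript, and such transcripts are known to be more frequent in cells that have left the cycle.

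The stem-loop letters were unevenly spread over the classes in the annotation. GENCODE release 29 transcripts were searched on the sense strand for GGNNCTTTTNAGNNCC, the letters of the stem and loop, where N is any base. The letters were found in 11 of 21 replication-dependent members and in 1 of 11 replacement variants, against 80 of 57133 gene symbols (0.140%) in the whole transcript set. A gene without a match may have annotated transcripts that end before the stem-loop. The replacement variant with the letters was H2AFX, which is known to give both a stem-loop and a polyadenylated mRNA. The sequences run 5′ to 3′ on the sense strand, with the 16 stem-loop bases in capitals and 5 bases on either side; they are shown because this element defines the replication-dependent class.
HIST1H2AC: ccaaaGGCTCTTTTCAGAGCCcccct
HIST1H2BC: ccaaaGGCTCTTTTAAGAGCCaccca
HIST1H2AG: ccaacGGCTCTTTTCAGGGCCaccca
HIST1H4H: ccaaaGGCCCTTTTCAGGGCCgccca
HIST2H2BE: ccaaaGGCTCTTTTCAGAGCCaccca
H2AFX: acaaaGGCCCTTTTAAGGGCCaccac
In several of these genes an annotated transcript runs on far beyond the stem-loop. It continued for 1729 bases in HIST2H2BE, 1761 bases in HIST1H2AG, up to 1128 bases in HIST1H2AC, up to 1655 bases in HIST1H4H and up to 1044 bases in H2AFX. The deposited values give 1 number per gene, so stem-loop and longer transcripts of a gene were not measured separately.

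Among the members with values, almost all of the summed FPKM came from the replacement variants. Their summed level was 2172 FPKM in untreated cells and 2219 FPKM with A4368, while the 21 replication-dependent genes summed to 103.6 and 114.7 FPKM. The variants thus made up 95.4% of the members' summed FPKM in the control and 95.1% with A4368. Values covered 21 of 71 coding replication-dependent symbols and 11 of 16 coding variant symbols. Since the RNA selection is also unknown, these are shares of the deposited values, and shares of the cells' histone mRNA were not measured. Their median level was 104 FPKM in untreated cells and 95.3 FPKM with A4368, against 1.80 and 2.12 FPKM for the replication-dependent genes. Of the 11 variants, 10 averaged 30 FPKM or more, and none of the replication-dependent genes did.

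**Figure D1:**
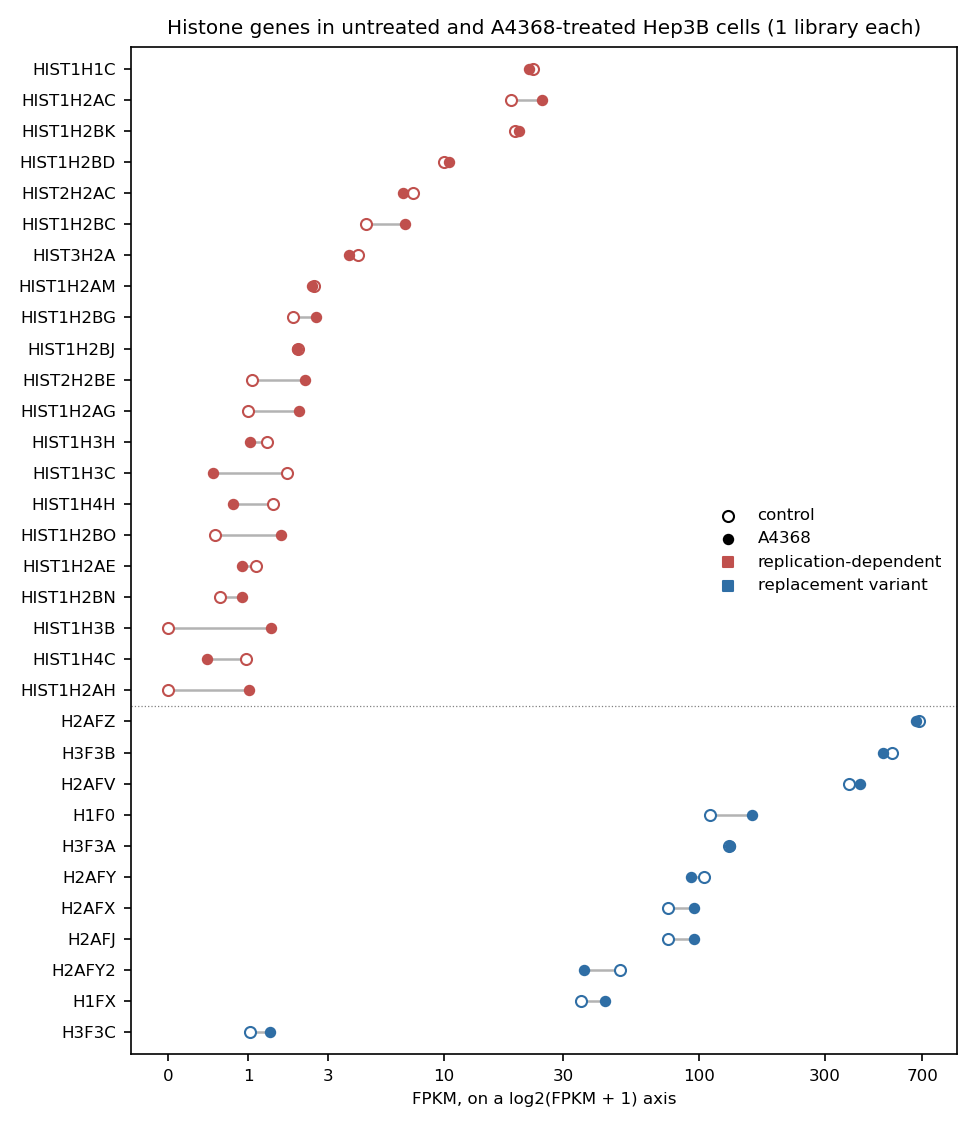
Levels of the 32 histone genes on a log2(FPKM + 1) axis; open circles are the control library, filled circles the A4368 library, red the replication-dependent genes and blue the replacement variants. The variants other than H3F3C lie above 30 FPKM in both libraries, and the replication-dependent genes lie at or below 24.7 FPKM.

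Ratios are log2((A4368 + 1)/(control + 1)) of the FPKM values, so that differences at low levels appear smaller than they are. Each group is a single library, the variation from culture to culture is unknown, and no difference has a replicate check or a p-value; fewer cells expressing a gene cannot be told apart from less RNA per cell. Of the 32 members, 28 averaged 1 FPKM or more: all 11 variants and 17 replication-dependent genes. Past a limit of 1.5-fold on this scale, 3 members were higher with A4368, where 1.08% of the 11238 genes that averaged 1 FPKM or more were higher. There was 1 lower member, where 2.12% of those genes were lower. All 4 were replication-dependent genes with means under 2 FPKM, and 3 of them reached the 1 FPKM mean through 1 library only. Among genes with a mean of 1 to 5 FPKM the same limit was passed upward by 2.54% and downward by 3.96%. No variant passed it; of all genes averaging 30 FPKM or more, 0.287% passed it upward and 1.21% downward.

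The median ratio was -0.02 for the 17 replication-dependent genes and 0.14 for the 11 variants, a difference of -0.16 log2 units, beside a median of 0.01 over all 11238 genes. The classes lie at different levels, so class and level cannot be told apart in this difference. The median over all genes was 0.04 at means of 1 to 5 FPKM, which hold 11 of the replication-dependent genes. It was also 0.04 at 5 to 30 FPKM, and -0.04 at 30 FPKM or more, where 10 of the variants lie. The sign of the replication-dependent median depended on the settings: it was 0.01 when the libraries were scaled to equal totals with the 50 highest genes set aside (the rescaling), and 0.05 with no filter on low values. The rescaling shifts the log2 ratio of every gene, before the pseudocount, upward by 0.05, so that sign change is part of a shift common to all genes. The difference between the classes was -0.02 among members averaging 5 FPKM or more and -0.06 when H2AFX was counted as replication-dependent. By number, 8 of 17 replication-dependent genes and 7 of 11 variants were higher with A4368, against 52.0% of all genes. After the rescaling these were 10 of 17 and 7 of 11, against 60.9% of all genes. Ratios ranged from -0.92 to 0.82 in the replication-dependent class and from -0.44 to 0.53 among the variants.

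**Figure D2:**
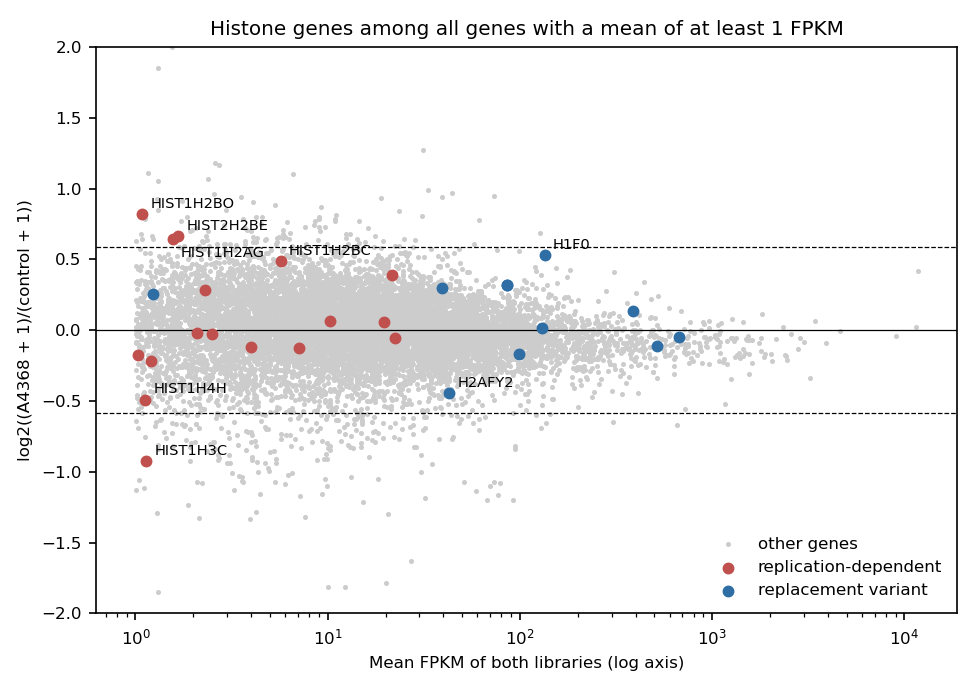
Ratio of each gene between the libraries against its mean FPKM (log axis) for genes averaging 1 FPKM or more; grey points are other genes, dashed lines mark 1.5-fold, and 7 genes lie outside the plotted range. The replication-dependent genes past the dashed lines sit at the left edge, where the grey points spread widest, and H1F0 lies just under the upper line at 134 FPKM.

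Linker histones bind DNA between nucleosomes and help to fold chromatin. H1F0, which encodes the H1.0 variant typical of differentiated and resting cells, was at 110 FPKM in untreated cells and 159 FPKM with A4368. The 1.45-fold difference was the highest ratio among the variants (0.53), and 15 of the 3136 genes that averaged 30 FPKM or more (0.478%) had a higher ratio. The gene lies at chr22:37805229-37807432 (RefSeq, GRCh38.p14), and none of its 31-base words occurs in another gene's transcripts. H1FX, the gene of H1.10, was also higher, at 35.2 and 43.6 FPKM (1.24-fold). It shares 19.6% of its words with H1FX-AS1, an antisense gene, and without known strandedness their reads cannot be separated. HIST1H1C, the replication-dependent gene of H1.2, was at 22.9 FPKM in untreated cells and 21.96 FPKM with A4368. The share of H1F0 in the summed signal of these 3 linker histone genes was 65.4% in the control and 70.8% with A4368.

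H2A has the largest set of variants. H2AFZ and H2AFV encode the near-identical forms of H2A.Z, which sits at promoters and enhancers. H2AFZ had the highest level of all members, at 683 FPKM in untreated cells and 660 FPKM with A4368. H2AFV was at 369 and 406 FPKM, so that the H2A.Z genes together gave 1052 and 1066 FPKM. Their ratios of -0.05 and 0.14 had opposite signs as deposited, and after the rescaling that of H2AFZ was within 0.01 of 0.

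H2AFX and H2AFJ showed nearly the same values as each other. H2AFX encodes H2A.X, the histone phosphorylated around DNA breaks, and was at 76.0 FPKM in untreated cells and 95.3 FPKM with A4368 (1.25-fold). H2AFJ encodes H2A.J, a variant known to accumulate in senescent cells, and was at 76.1 and 95.1 FPKM (1.25-fold). Each had a ratio of 0.32, and 74 and 80 of the 3136 genes at that level (2.36% and 2.55%) had higher ratios.

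The macroH2A genes both had lower values with A4368, and neither passed the limit. These variants carry a large globular domain beside the histone fold and are linked with silent chromatin. H2AFY2, the gene of macroH2A2 (chr10:70052846-70112282, RefSeq, GRCh38.p14), was at 49.5 FPKM in untreated cells and 36.2 FPKM with A4368. This 1.37-fold difference was the lowest ratio among the variants (-0.44, or -0.39 after the rescaling), and 85 of 3136 genes at that level (2.71%) had a lower one. H2AFY, the gene of macroH2A1, was at 104 and 92.9 FPKM, and 691 of the same 3136 genes had a lower ratio than its -0.17. Of the words of H2AFY, 26.9% occur in C5orf66, whereas H2AFY2 shared none with another gene. The share of H2AFY in the macroH2A signal was 67.8% in the control and 72.0% with A4368.

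H3.3, which replaces replication-dependent H3 at active genes and at telomeres, is made from a pair of genes with the same protein product. H3F3B was at 538 FPKM in untreated cells and 499 FPKM with A4368, and H3F3A at 130 and 131 FPKM. H3F3A thus gave 19.4% of the H3.3 signal in the control and 20.8% with A4368. H3F3C, the gene of the related H3.5, was at 1.03 and 1.42 FPKM and shares 36.8% of its words with H3F3B. The replication-dependent H3 genes were near the lower edge of the table. HIST1H3C was at 1.80 FPKM in untreated cells and 0.475 FPKM with A4368, the member below the 1.5-fold limit, and HIST1H3H was at 1.36 and 1.04 FPKM. HIST1H3B was listed at 0 in the control and at 1.44 FPKM with A4368, opposite in direction to HIST1H3C, with which it shares 7.61% of its words. Together the replication-dependent H3 genes with values summed to 3.16 and 2.96 FPKM. Of the summed FPKM of all H3 members, 99.5% came from the variants in both libraries.

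H2B and H4 were represented by replication-dependent genes alone. Of the 8 H2B genes, 7 had higher values with A4368. Of the 7 that averaged 1 FPKM or more, 6 were higher as deposited and 7 after the rescaling. Among all genes at that level, 52.0% and 60.9% were. HIST1H2BN lay below that level, and HIST1H2BO reached it through the A4368 library alone. The H2B sum was 40.1 FPKM in untreated cells and 46.9 FPKM with A4368. HIST1H2BC was at 4.57 and 6.81 FPKM (1.49-fold), HIST1H2BG at 1.97 and 2.61 FPKM, and HIST1H2BN at 0.564 and 0.905 FPKM. HIST2H2BE, 1 of the higher members past the limit, was at 1.07 and 2.27 FPKM, and HIST1H2BO, another, at 0.506 and 1.66 FPKM. Of the words of HIST1H2BO, 35.9% also occur elsewhere in the transcript set, and of those of HIST2H2BE 12.4%. The H2B genes of highest level had similar values in both libraries: HIST1H2BK was at 19.3 and 20.1 FPKM and HIST1H2BD at 10.0 and 10.5 FPKM. HIST1H2BJ, at 2.10 and 2.06 FPKM, was the lower member as deposited, with a ratio of -0.02 that became 0.01 after the rescaling. Of HIST1H2BK's words 86.3% occur in other genes, chiefly H2BFS, so its value cannot be assigned to 1 gene with certainty. Both H4 genes had lower values, HIST1H4H at 1.48 and 0.763 FPKM and HIST1H4C at 0.972 and 0.397 FPKM. Their sum was 2.45 FPKM in untreated cells and 1.16 FPKM with A4368. HIST1H4C averaged below 1 FPKM, and HIST1H4H reached that level through the control library alone.

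Replication-dependent H2A genes showed no common direction. HIST1H2AC, the highest of them, was at 18.6 FPKM in untreated cells and 24.7 FPKM with A4368 (1.33-fold), and 4.18% of 5626 genes with a mean of 5 to 30 FPKM had a higher ratio. HIST1H2AG, the other higher member past the limit, was at 0.996 and 2.12 FPKM, and HIST1H2AH was listed at 0 in the control and at 1.01 FPKM with A4368. The remaining H2A genes had lower values as deposited. HIST2H2AC was at 7.39 and 6.71 FPKM, HIST3H2A at 4.22 and 3.81 FPKM, HIST1H2AM at 2.54 and 2.48 FPKM, and HIST1H2AE at 1.15 and 0.904 FPKM. The ratio of HIST1H2AM was -0.03 as deposited and 0.01 after the rescaling. HIST1H2AM shares 87.1% of its words with HIST1H3J and HIST2H2AC 50.6% with other genes, chiefly HIST2H2AA3.

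Many H2A and H2B genes start back to back and share the stretch between their starts. By RefSeq gene ends, 6 pairs of members did so, with 232 to 247 bases between the starts. Sequences of 3 of these stretches from the RefSeq promoter table (GRCh38.p14, plus strand, 5′ to 3′) are given. They show the layout common to a pair with similar ratios, the first, and to pairs with ratios further apart. Capitals mark the CCAAT box, the TATA box letters TATAAA and the octamer ATTTGCAT. Each was searched on both strands, so some appear as the reverse complement, and matches to different motifs may overlap. The H2B gene lies to the left in the first and second stretches and to the right in the third.
HIST1H2BC and HIST1H2AC, chr6:26123927-26124171: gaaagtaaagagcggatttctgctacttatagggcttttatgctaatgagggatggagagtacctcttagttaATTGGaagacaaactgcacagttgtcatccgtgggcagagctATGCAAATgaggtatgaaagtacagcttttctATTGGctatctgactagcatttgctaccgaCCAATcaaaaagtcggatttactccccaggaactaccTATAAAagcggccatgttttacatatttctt
HIST2H2BE and HIST2H2AC, chr1:149886683-149886917: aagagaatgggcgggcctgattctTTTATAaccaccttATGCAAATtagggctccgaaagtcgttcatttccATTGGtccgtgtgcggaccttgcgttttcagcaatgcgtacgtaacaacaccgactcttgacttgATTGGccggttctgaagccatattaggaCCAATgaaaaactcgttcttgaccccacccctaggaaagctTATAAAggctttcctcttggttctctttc
HIST1H2AM and HIST1H2BO, chr6:27893186-27893424: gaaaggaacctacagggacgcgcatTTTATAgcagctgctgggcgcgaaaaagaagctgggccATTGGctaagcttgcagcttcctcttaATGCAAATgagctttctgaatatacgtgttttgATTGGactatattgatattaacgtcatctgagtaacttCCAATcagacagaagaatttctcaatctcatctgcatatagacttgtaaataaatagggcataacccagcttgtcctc
Each of these stretches holds 3 CCAAT matches and 1 octamer, and the TATAAA letters occur 1 time, 2 times and 1 time in the order given. RefSeq windows of 250 bases before to 50 after the start were matched for 19 replication-dependent members and 9 variants, and the first listed window was taken for genes that have several. CCAAT was in 18 of 19 and 6 of 9, against 34.6% of all 35116 windows. TATAAA was in 14 of 19 and 4 of 9, against 11.5%. The octamer, a binding sequence of POU2F1 long known from H2B promoters, was in 11 of 19 and 1 of 9, against 1.77%. Paired genes share most of a window, so these counts are not independent.

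In 2 of 6 pairs both genes had higher values with A4368, and in 4 the deposited values went in opposite directions. HIST1H2AM and HIST1H2BJ, with ratios close to 0, changed sign after the rescaling, so that 2 of these 4 pairs then went the same way. HIST1H2AC and HIST1H2BC were the pair with the closest ratios, 0.39 and 0.49. HIST2H2AC and HIST2H2BE had ratios of -0.12 and 0.66, and HIST1H2AM and HIST1H2BO ratios of -0.03 and 0.82. HIST1H2AG and HIST1H2BJ were at 0.65 and -0.02, HIST1H2AE and HIST1H2BG at -0.18 and 0.28. The pair HIST1H2AH and HIST1H2BK is among the 2 with both genes higher, but HIST1H2AH was listed at 0 in the control. Its mean of 0.504 FPKM, near the lowest mean of 0.496 FPKM, comes from the A4368 library alone, so its direction carries no weight. Taken singly, 52.0% of all genes averaging 1 FPKM or more were higher. In each pair other than HIST1H2AC and HIST1H2BC at least 1 gene had a mean under 2.5 FPKM, a level at which the ratios of all genes spread widely (SD 0.34 at 1 to 5 FPKM).

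**Figure D3:**
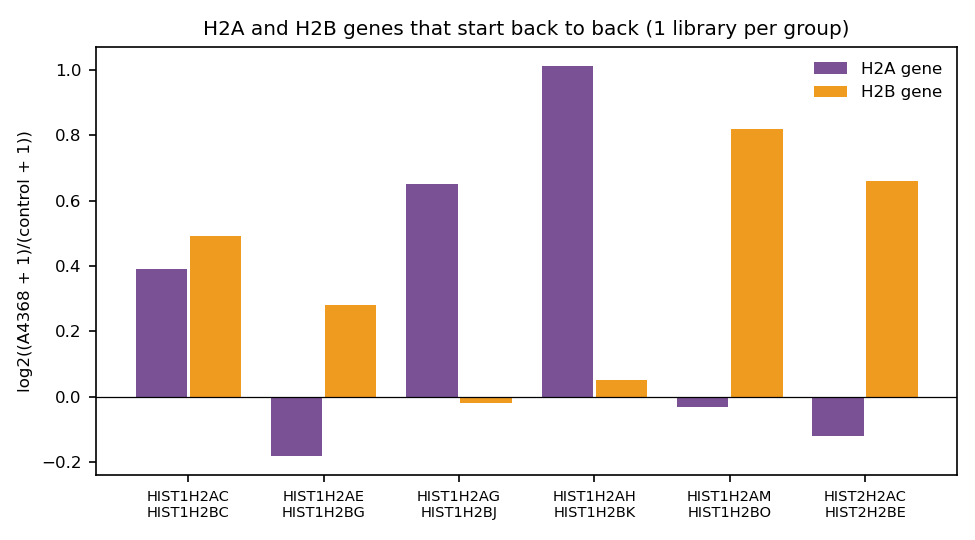
Ratios of the 6 pairs of H2A (purple) and H2B (orange) genes that start back to back, on the log2((A4368 + 1)/(control + 1)) scale, 1 library per group. HIST1H2AC and HIST1H2BC have similar bars, and the other pairs have 1 tall and 1 short or opposite bar.

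Among the listed genes that transcribe, process and place histones, HINFP alone passed the 1.5-fold limit. Of 32 genes for histone mRNA transcription and processing, all averaging 1 FPKM or more, 19 were higher with A4368 as deposited and 25 after the rescaling, where all genes gave 52.0% and 60.9%. The median ratio was 0.03. SLBP, the protein that binds the stem-loop and carries the mRNA through its life, was at 80.8 FPKM in untreated cells and 81.2 FPKM with A4368. HINFP, a transcription factor of H4 genes, was the member past 1.5-fold, at 4.06 and 6.72 FPKM. ZCCHC11, a uridylyltransferase linked with histone mRNA decay, was at 9.04 and 12.3 FPKM, and MIF4GD, which joins SLBP to translation, at 9.82 and 12.9 FPKM.

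Histone chaperones carry newly made histones to DNA and exchange variants. Of 35 chaperone and variant deposition genes, 18 were higher as deposited and 20 after the rescaling, beside the same 52.0% and 60.9% of all genes. The median ratio was 0.00, and no gene passed the 1.5-fold limit, with or without the pseudocount. TONSL, which reads new H4 behind the fork, was at 14.6 and 21.1 FPKM, and EP400, a remodeller that deposits H2A.Z and H3.3, at 7.46 and 9.76 FPKM. NPM1 had the highest level of the list, at 590 and 531 FPKM. MCM2, a helicase subunit that also binds H3 and H4, was at 57.8 and 46.5 FPKM.

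The DNA replication and S phase genes had ratios from -0.57 to 0.33. Of these 46 genes, which include MCM2, 16 were higher and 30 lower as deposited. After the rescaling 28 were higher, again beside 52.0% and 60.9% of all genes higher as deposited and rescaled. The helicase genes MCM2 to MCM7, picked out after their values were seen, were all lower with A4368. Their ratios ran from -0.31 (MCM2) to -0.13 (MCM4), and from -0.26 to -0.08 after the rescaling. The median ratio was -0.03, and no gene passed the 1.5-fold limit once the pseudocount was added. PCNA, the sliding clamp, was at 231 FPKM in untreated cells and 224 FPKM with A4368. POLE2, a subunit of DNA polymerase epsilon, was at 14.4 and 9.35 FPKM. This is 1.54-fold lower as a plain ratio, while its ratio of -0.57 with the pseudocount falls short of the limit. GINS4, a subunit of the replicative helicase, was at 8.80 and 11.3 FPKM. Cell cycle position was not measured.

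**Figure D4:**
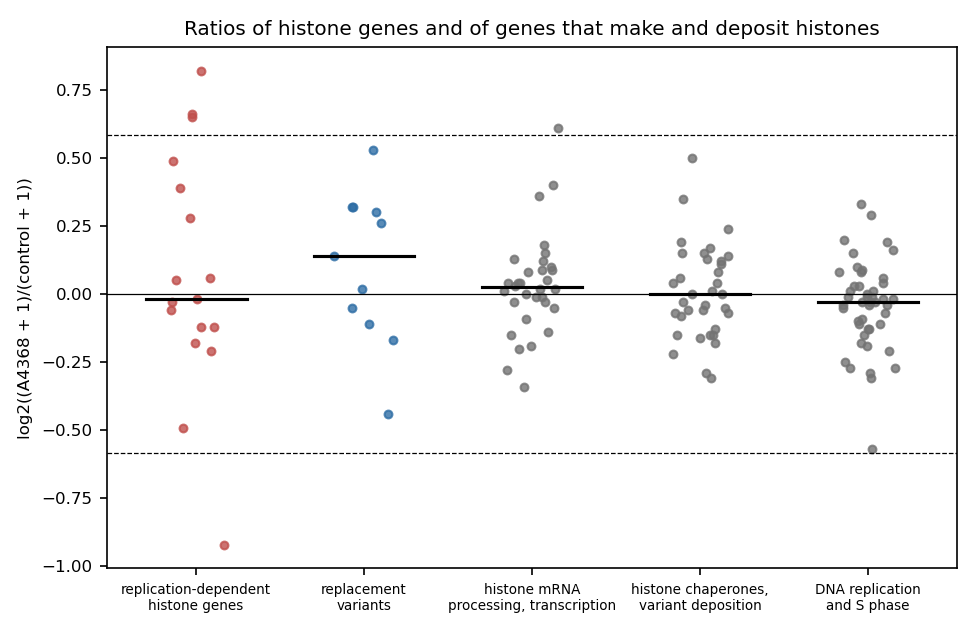
Ratios of the 17 replication-dependent genes and 11 replacement variants that averaged 1 FPKM or more, and of 3 gene lists; each point is a gene, black bars are medians and dashed lines mark 1.5-fold. The replication-dependent points spread from -0.92 to 0.82, and the list medians lie between -0.03 and 0.03.

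The libraries carried the markers of the labelled line. The hepatoma markers ALB, at 9183 and 8930 FPKM, and AFP, at 368 and 295 FPKM, were among 6 of 6 such markers with values, and their sum was 12212 FPKM in untreated cells and 11744 FPKM with A4368. Of 5 leukocyte markers 3 had values, summing to 50.1 and 39.9 FPKM. LYZ, named after its values were seen, accounts for most of that difference at 17.6 and 9.48 FPKM. Of 4 fibroblast markers 1 had values (17.9 and 11.9 FPKM), and of 4 endothelial markers none did. The part of other cells in the histone values was not tested.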

How the data were processed

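The authors deposited 1 table that pairs each gene symbol with 1 value per library and leaves the unit unnamed. Per the submitters' processing notes, the tools were TopHat2 (2.0.12), Bowtie2 (2.2.3) and Cufflinks on hg19. The deposited values are fractional and were therefore taken as FPKM, the unit Cufflinks reports. The annotation is not given in the sources used here, nor is any filter on low genes; the lowest mean of the libraries was 0.496 FPKM. Counts, and with them depth and counting intervals, are unknown. How reads that match several similar genes were divided between them is also not given.

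Ratios used a pseudocount of 1 FPKM and genes averaging 1 FPKM or more, which left 11238 and removed 273. Folds are plain ratios of deposited values. With 1 library per group no test was run. Sequence sharing was scored as the percentage of 31-base words of a gene that GENCODE release 29 also lists in transcripts of another gene, in either orientation. All 32 members matched GENCODE by symbol. RefSeq identifiers came from GENCODE's metadata, and coordinates are those of GRCh38.p14, not of the deposited values. All members are named. Named from each of the 3 lists of histone processing, chaperone and replication genes were the highest gene and the 3 genes of largest absolute ratio. Of the cell markers ALB and AFP were named. MCM3 to MCM7 and LYZ were added after their values were seen. Members and lists were chosen with earlier results of these data known. Alternatives were other pseudocounts and filters, centring on the median ratio of genes averaging 10 FPKM or more, rescaling, a 2-fold limit, class means, H2AFX in the other class, and leaving out members with shared sequence. The ratio, the fold limit and the rescaling were tested on simulated shifts in genes averaging 5 FPKM or more. Shifts at lower levels were not simulated, and class medians, ranks and sequence steps were not tested this way. Python 3.11.15, numpy 2.4.6 and pandas 2.3.3 were used.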

Additional observations from a re-analysis of the deposited data

How the results depend on the processing

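The replication-dependent median ratio, -0.02 as reported, was -0.03 with a pseudocount of 0.1 FPKM and -0.01 with 5 FPKM. It changed sign to 0.05 with no filter, 0.06 at a mean of at least 5 FPKM, 0.01 after rescaling, 0.07 as a mean over members, 0.02 with H2AFX added, and 0.02 without members sharing at least 50% of their words. The replacement variant median of 0.14 was 0.09 with a pseudocount of 5 FPKM, 0.08 at a mean of at least 5 FPKM, 0.19 after rescaling, 0.10 as a mean and 0.08 without H2AFX. The class difference of -0.16 was -0.17 with a pseudocount of 0.1 FPKM, -0.10 with 5 FPKM, -0.08 with no filter, -0.02 at a mean of at least 5 FPKM, -0.17 after rescaling, -0.03 for means, -0.06 with H2AFX moved and -0.12 without members sharing words. It was negative under each of these and under centring. The causes of these shifts were not tested. The counts past 1.5-fold, 3 higher and 1 lower, became 3 and 2 with a pseudocount of 0.1 FPKM and 5 and 1 with no filter. They became 0 and 0 with a pseudocount of 5 FPKM, at a mean of at least 5 FPKM, or with a 2-fold limit. The higher members added with no filter, HIST1H3B and HIST1H2AH, were listed at 0 in the control. Their values come from the A4368 library alone, so their direction carries no weight. The summed level with A4368 over control was 1.11 for replication-dependent genes and 1.02 for variants; it was 1.15 and 1.05 without HIST1H1C and H2AFZ, the highest member of each class, and 1.15 and 1.06 after rescaling. No paired analysis was possible because each group has 1 library, and no replicate could be left out. Depth is unknown, and the values of members under 2 FPKM carry no stated precision.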
